A study of Mus musculus with 11 samples.

Results

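Dexamethasone and tumour necrosis factor (TNF) are both used to make cultured fat cells insulin resistant, and the array data compared here set the transcripts of the one treatment directly against those of the other. The comparison took the 3 TNF arrays and the 3 dexamethasone (DEX) arrays, chosen by their titles, 6 of the 11 arrays of the series. It covered the probe sets with exactly 1 gene symbol in the platform annotation, 34945 of 45101, which stood for 18193 genes. The cells were 3T3-L1 adipocytes, a mouse line grown as preadipocytes and differentiated in culture. TNF cells received 2 ng/ml TNFα for 4 days. DEX cells received 20 nM dexamethasone for 8 days, with a medium change every other day, so the treatments differed in length as well as in agent. The starts were staggered, and all cells were taken at the same day after differentiation. The 3 control arrays, set beside them, were of untreated cells. The 2 arrays of cells given 10 nM insulin in 4 additions (CI) were not compared. They entered the estimate of the spread and the mean intensities used to choose probe sets and filter dim genes. The labels name ethanol at 0.01% as the carrier of dexamethasone and as its control, while no carrier is named for the control arrays, so it is not known if they had it. All arrays came from the same line, and the 3 arrays of each treatment are labelled as experimental replicates, with no word on separate cultures. The p-values therefore rest on array-to-array spread alone, and that spread may be technical. The labels give the tissue as adipose, but the material was a cell line in a dish, without the blood vessels and immune cells of a fat pad.

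TNF binds receptors at the cell surface and activates the transcription factor NF-kappaB, which switches on chemokines, adhesion molecules and acute-phase proteins, as well as the inhibitors that switch NF-kappaB off again. Dexamethasone is a synthetic glucocorticoid that enters the cell and binds the glucocorticoid receptor, which then acts at response elements in DNA and also restrains NF-kappaB and interferon signalling. In fat cells glucocorticoids are needed for differentiation and change lipid storage and release, while TNF is known for raising lipolysis and lowering adipocyte genes.

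Each array gave 1 intensity per probe set, a brightness on a linear scale, with a median of 124.5 to 129.5 over all 11 arrays. Spots from near-identical genes (the Saa, Orm, Gbp, H2, Lyz, Ear, Ces1, Gstm and Aldh1a families) can cross-hybridise, so the split between members of such families is uncertain. Differences are given as log2(intensity + 16) in TNF minus DEX, so a positive value means higher in TNF, and dim genes are understated on this scale. A gene was called when its Benjamini-Hochberg adjusted p was under 0.05 (limma, over all 15623 genes tested), and "passed" below refers to this test. Arrays of 1 group correlated at 0.9963 to 0.9980 across all probe sets (Spearman), and TNF and DEX arrays with each other at 0.9870 to 0.9883; probe sets are not independent replicates. The ratio of 3' to 5' signal, a sign of RNA integrity, was 1.44 to 1.73 for actin over the TNF and DEX arrays. It was 1.07 to 1.09 for Gapdh in TNF and 1.05 to 1.11 in DEX.

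The adipocyte identity of both groups was checked first. Adipoq, the hormone adiponectin, lay at 20820, 20930 and 20920 in the TNF arrays and at 21660, 21180 and 22090 in the DEX arrays. Fabp4, the adipocyte lipid chaperone, lay at 21650 to 21980 and 22500 to 23320, and Lpl, the lipase that frees fatty acids from lipoproteins, at 18160 to 18480 and 18830 to 20000. These genes did not pass, with 95% intervals of the log2 difference of -0.15 to 0.051, -0.18 to 0.026 and -0.20 to 0.011. Their values lay near the highest intensity of each array (22501 to 25933), where differences can be compressed. Lpl did pass toward DEX with quantile normalization (-0.19) and with an intensity trend in limma (-0.093). Other adipocyte markers were not equal between the groups. Cidec (-0.85) and Cd36 (-0.15) were higher in DEX and Pparg (0.29) in TNF, while Lipe did not pass (-0.09). Cd36 lost its call when some of the arrays were left out. Some defining markers of leukocytes and of endothelium were dim, while others passed the filter on dim genes and are counted with their lists. Ptprc, the pan-leukocyte phosphatase, lay at 22.3 to 26.2 in TNF and 24.0 to 24.4 in DEX, and Itgam at 45.6 to 49.4 and 46.8 to 49.1, both under the filter on dim genes. The endothelial marker Pecam1 was also under it, at 44.7 to 46.7 and 49.8 to 53.1. In cells measured in bulk, fewer cells of a type and less RNA per cell cannot be told apart.

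In all, 5645 of 15623 genes passed (36.1%), 2838 higher in TNF (18.2%) and 2807 higher in DEX (18.0%). The numbers in each direction were nearly equal in this fit, and the large differences were not. That balance in number changed with the scaling: quantile normalization gave 2539 higher in TNF and 3192 in DEX. Arrays centred on the median gave 2888 and 2604. Over 2-fold, 265 genes were higher in TNF (1.7%) and 88 in DEX (0.563%), and over 4-fold 53 were higher in TNF (0.339%) and 20 in DEX (0.128%). The median of the absolute log2 difference over all genes was 0.124, and the median of the signed difference was -0.036. In 5436 of the genes that passed, the 3 TNF arrays lay wholly above or wholly below the 3 DEX arrays, and in 209 the groups overlapped. Such separation held for 47.7% of all genes tested.

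**Figure D1:**
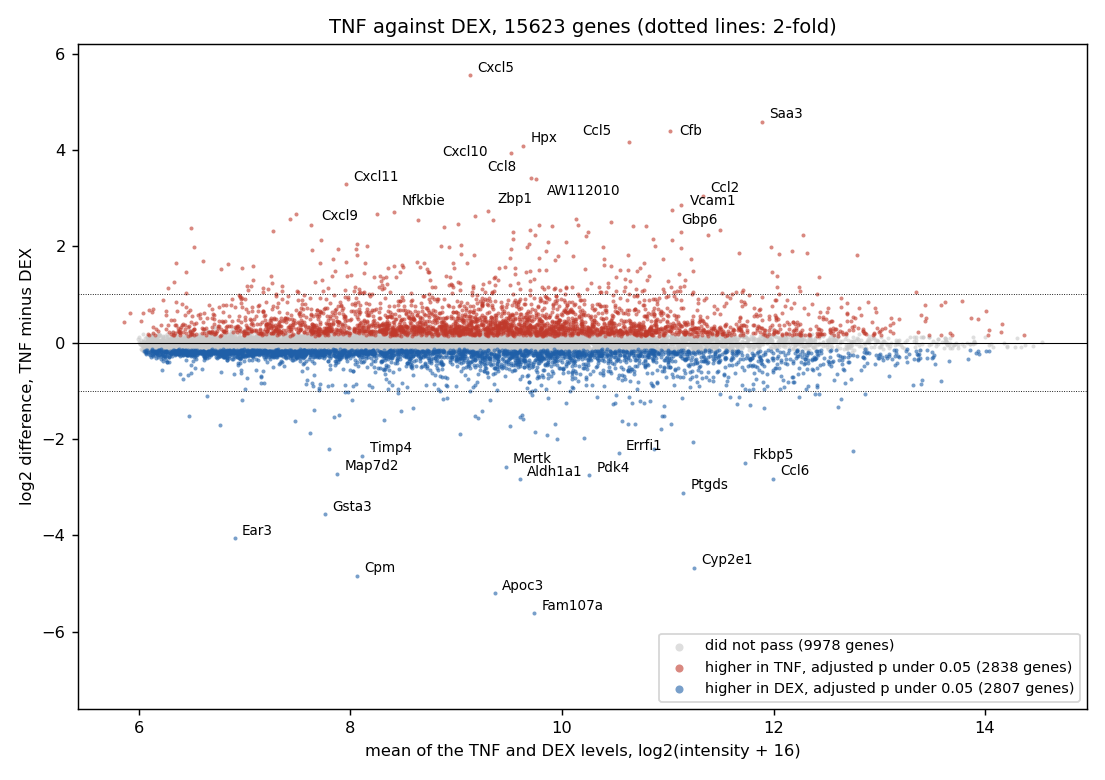
Each point is 1 of the 15623 genes, with the mean level of the TNF and DEX arrays on the horizontal axis and the log2 difference, TNF minus DEX, on the vertical axis. Red and blue points passed and grey points did not, the dotted lines mark 2-fold, and the 15 largest differences in each direction are named, from Cxcl5 at 5.55 to Fam107a at -5.61.

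Of the 15 genes furthest toward TNF, 7 were chemokines. Cxcl5, a chemokine that attracts neutrophils, had intensities of 3840, 4844 and 2866 in TNF, 77.8, 65.9 and 52.1 in DEX and 533.1, 670.4 and 402.5 in control. All TNF arrays lay above all control arrays, and all DEX arrays below them. The TNF level was 46.9-fold that of DEX, a log2 difference of 5.55 (SE 0.178) with an adjusted p of 5.35e-12. Saa3, an acute-phase apolipoprotein, lay at 18290, 19250 and 17010 in TNF and at 620.6, 575.5 and 1140 in DEX. The TNF arrays were near the top of the scale, and the 24.0-fold difference may be compressed. Cfb, complement factor B of the alternative pathway, lay at 9514, 9961 and 8293 in TNF and 417.9, 287.1 and 642.6 in DEX, 20.9-fold apart without overlap.

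The genes furthest toward DEX were of several kinds. Fam107a, an actin-associated stress-response protein, had intensities of 111.8, 85.4 and 122.4 in TNF, 5856, 6301 and 5666 in DEX and 103.0, 102.7 and 132.3 in control. The TNF and control arrays overlapped, and every DEX array lay far above both. The DEX level was 49.0-fold that of TNF, a log2 difference of -5.61 (SE 0.105) with an adjusted p of 1.73e-14. Apoc3, an apolipoprotein that slows the clearance of triglyceride-rich particles, lay at 3651, 3889 and 4408 in DEX and 91.5, 86.4 and 99.9 in TNF (36.8-fold). Cpm, a membrane carboxypeptidase, lay at 1413, 1279 and 1537 in DEX and 31.4, 36.1 and 34.1 in TNF (28.5-fold). In both the groups were far apart, with TNF near the dim end of the scale, where the difference is understated. Cyp2e1, a cytochrome P450 that oxidises ethanol and acetone, was moved in opposite directions from control. Its intensities were 454.4, 418.6 and 524.2 in TNF, 991.2, 1241 and 1235 in control and 11680, 12390 and 12560 in DEX, and the 3 groups did not overlap.

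The NF-kappaB subunits and feedback inhibitors were mainly higher in TNF. Of 22 tested, 13 were higher in TNF, 3 in DEX and 6 did not pass, and the median log2 difference was 0.37. Set beside control, 16 were above and 1 below in TNF, against 8 above and 1 below in DEX; over all genes 13.9% were above and 11.2% below control in TNF, and 14.0% and 13.6% in DEX. The TNF and DEX comparisons with control share the control arrays. Nfkbie, the inhibitor IkappaB-epsilon, lay at 1235, 714.3 and 649.8 in TNF and 105.7, 151.6 and 88.8 in DEX. The first TNF array was the highest, and no DEX array reached the TNF range. The difference was 2.72 (SE 0.217), adjusted p 1.25e-07. Relb, a subunit of the non-canonical pathway, lay at 840.1 to 1206 in TNF and 379.6 to 403.8 in DEX (1.36). Ikbke, an inducible kinase of the same family as the IkappaB kinases, differed by 1.57 and Bcl3, a nuclear IkappaB protein, by 1.07.

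Nfkbia, the inhibitor IkappaB-alpha, was 1 of the members that did not pass. It lay at 8707, 8139 and 7600 in TNF, 8173, 7900 and 7872 in DEX and 4950, 5103 and 4502 in control. The treated groups overlapped and both lay above control. The log2 difference between treatments was 0.028, with a 95% interval of -0.11 to 0.17 and an adjusted p of 0.765, while each treatment passed against control, at 0.75 for TNF and 0.72 for DEX. Tnfaip3, the ubiquitin-editing inhibitor A20, lay at 888.4, 872.0 and 665.6 in TNF, 642.0, 568.7 and 578.7 in DEX and 345.5, 296.4 and 244.9 in control. All treated arrays lay above control, and TNF above DEX by 0.42 (adjusted p 0.0102). Without the first TNF array that difference was 0.35 and did not pass, nor did the mean of its probe sets (0.25, limma's adjusted p 0.0509).

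Among the TNF, toll-like and interleukin receptors, 13 of 30 were higher in TNF, 6 in DEX and 11 did not pass, with a median of 0.097. Tlr2, the receptor for bacterial lipoproteins, lay at 2414, 2331 and 1870 in TNF and 414.0, 470.1 and 316.2 in DEX, a difference of 2.43 (SE 0.117) without overlap. Tlr3, which senses double-stranded RNA, lay at 844.0 to 887.0 in TNF, 750.0 to 814.8 in control and 234.6 to 315.2 in DEX. It passed against control in DEX (-1.50) and not in TNF (0.16). Ifngr1, a chain of the interferon-gamma receptor, and Il1r1, the interleukin-1 receptor, were higher in DEX (-0.59 and -0.40). The TNF receptors themselves did not pass: the interval for Tnfrsf1a was -0.013 to 0.19 and that for Tnfrsf1b -0.076 to 0.22. Tnfrsf1b was above control in both groups, by 0.57 in TNF and 0.49 in DEX. The Tnf transcript was low, at 112.6 to 136.9 in TNF and 119.0 to 143.1 in DEX, with an interval of -0.23 to 0.079.

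Chemokines ranged from the largest difference toward TNF to one of the 15 largest toward DEX. Of 26 tested, 15 were higher in TNF, 2 in DEX and 9 did not pass, with a median of 0.57. Their median against control was 0.38 in TNF and -0.12 in DEX, and 9 were below control in DEX against 1 in TNF. Ccl5, which attracts T cells and monocytes, lay at 7134, 6174 and 6672 in TNF and 374.7, 268.1 and 441.4 in DEX (18.0-fold). Ccl2, the monocyte attractant, lay at 8449, 7505 and 6248 and 862.6, 1077 and 716.4 (8.28-fold). Neither overlapped. Cxcl10, an interferon-inducible attractant of T cells, separated all 3 groups, with 3453, 2861 and 2323 in TNF, 1388, 1581 and 1159 in control and 155.7, 184.1 and 169.3 in DEX. Ccl6 went the other way, at 1443 to 1578 in TNF and 9793 to 11750 in DEX, and Cxcl13, an attractant of B cells, was also higher in DEX (-0.39). Of 20 other cytokines and colony-stimulating factors, 6 were higher in TNF and 1 in DEX. Il6 lay at 501.5, 467.9 and 332.7 in TNF, 149.9, 160.2 and 107.6 in control and 51.8, 77.2 and 38.4 in DEX, a difference of 2.66 (SE 0.179) between treatments with no overlap among the 3 groups. Csf1, the macrophage growth factor, differed by 1.10.

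The bases before the start of 2 of these genes are shown because their levels differed and because they hold motifs for the factor that TNF activates. Each sequence is written 5' to 3' along the gene's strand from RefSeq (GRCm38.p6), with capitals marking only the matches of the motif it is shown for, while matches of the other motifs searched are left in lower case. The promoters shown were chosen after their matches and values were seen. Motifs were searched on both strands and may overlap each other: the kappaB consensus by name, the interferon-stimulated response element (GAAA, any 2 bases, GAAA), the C/EBP palindrome (TTGCNNAA), the glucocorticoid response element (GNACA, any 3 bases, TGTNC) and the sterol response element (TCACNCCAC). A match is a description of letters and not a bound site. For Nfkbie the stretch is chr17:45555550-45555699, plus strand, and for Cxcl10, which holds an interferon-stimulated response element and 2 kappaB matches, it is chr5:92348890-92349139, minus strand.
Nfkbie: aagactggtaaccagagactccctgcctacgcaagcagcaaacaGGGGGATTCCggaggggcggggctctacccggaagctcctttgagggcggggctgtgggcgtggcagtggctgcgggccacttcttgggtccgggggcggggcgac
Cxcl10: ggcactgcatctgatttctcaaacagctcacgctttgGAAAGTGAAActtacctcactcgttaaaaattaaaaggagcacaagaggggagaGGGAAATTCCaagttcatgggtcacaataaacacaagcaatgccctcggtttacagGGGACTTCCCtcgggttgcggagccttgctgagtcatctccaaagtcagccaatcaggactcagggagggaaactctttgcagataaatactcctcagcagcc
In the 250 bases before the start, a kappaB match was found in 9 of 25 windows of the NF-kappaB list (36.0%) and in 4 of 19 of the chemokines (21.1%), against 3.9% of 32851 windows of all genes. A gene can have several windows, which may overlap. By gene the counts were 7 of 18 and 4 of 18, against 1204 of 27025. Genes with a match included Nfkbia and Ccl20, which did not pass.

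**Figure D2:**
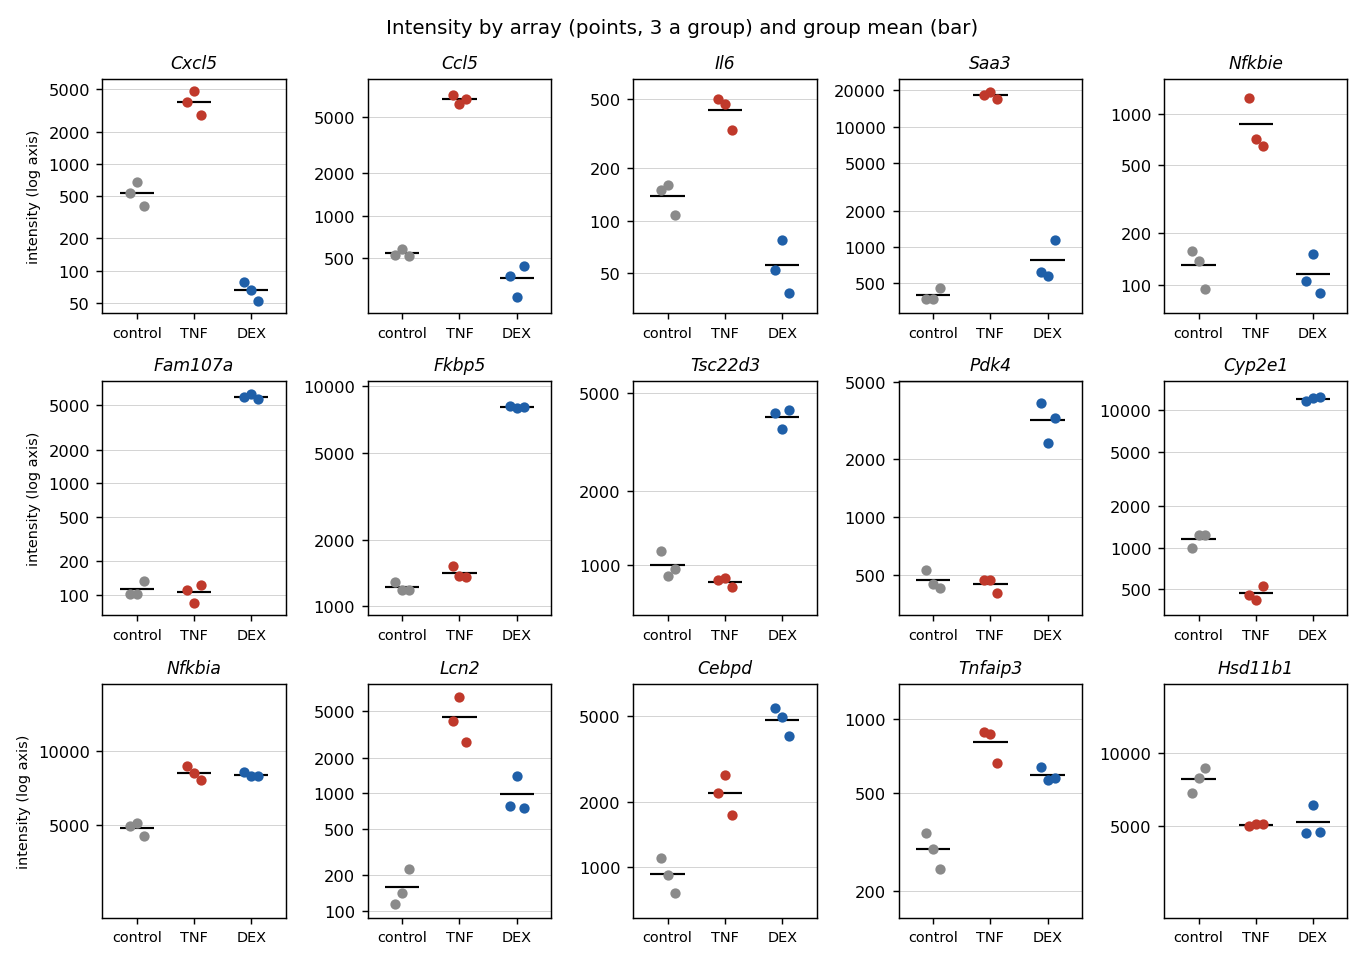
Each panel plots the intensity of 1 gene on a logarithmic axis in the 3 control (grey), 3 TNF (red) and 3 DEX (blue) arrays, with points for arrays and a bar for the group mean. Cxcl5 is high in TNF and Fam107a in DEX, while Nfkbia lies at 7600 to 8707 in TNF and 7872 to 8173 in DEX, both above control.

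Acute-phase proteins, the plasma proteins made in inflammation, were more often higher in TNF than in DEX. Of 19 tested, 8 were higher in TNF, 3 in DEX and 8 did not pass, with a median of 0.093. The share higher in TNF was 42.1%, against 18.2% of all genes, and that higher in DEX 15.8%, against 18.0%. Hpx, the haem carrier hemopexin, lay at 3074, 3711 and 2904 in TNF, 146.2, 157.3 and 230.5 in DEX and 253.3, 262.0 and 298.2 in control (16.9-fold between treatments). TNF was above control and DEX below it. Chil1, a chitinase-like protein, and Lbp, which binds bacterial lipopolysaccharide, were 5.83-fold and 5.30-fold higher in TNF, although another probe set of Lbp differed by 0.25 on the log2 scale. Lcn2, the iron-siderophore binding lipocalin, was raised by both treatments to different levels. Its intensities were 4091, 6606 and 2716 in TNF, 778.3, 1403 and 752.4 in DEX and 112.8, 140.2 and 225.5 in control. The groups did not overlap, although both treated groups spread widely, and the difference was 2.14 (SE 0.29), adjusted p 3.36e-05. Orm3, an orosomucoid, was 2.03-fold higher in DEX. Serpina3n, a protease inhibitor, was above control in both groups (0.88 and 1.22), and its difference of -0.34 lost its call when any of 7 arrays was left out, reaching -0.18 without the third TNF array and -0.54 without the second. Saa4, the third member higher in DEX (-0.16), lost its call without the first DEX array (-0.14), the third (-0.17) or the first TNF array (-0.11).

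Of 17 complement components and regulators, 8 were higher in TNF, 2 in DEX and 7 did not pass. The 2 higher in DEX, C1qc (-0.20) and Vtn (-0.17), each lost the call without the first DEX array (-0.20 and -0.19), the third (-0.17 and -0.17) or the first TNF array (-0.15 and -0.10), and without some others. Below control lay 7 in DEX and 1 in TNF. C1s1 and C1ra, the proteases of the first complement component, lay at 5020 to 6256 and 9297 to 10170 in TNF and at 1080 to 1304 and 2361 to 2884 in DEX. Clu, the chaperone clusterin, lay at 3940, 3843 and 3911 in TNF and 868.5, 910.8 and 821.3 in DEX (4.44-fold). None of these overlapped. Saa3 and Hpx both hold a C/EBP match before the start, as did 9 of 16 windows of the acute-phase list (56.2%), against 9.56% of all windows. Other genes with the match included Lcn2 and Ptx3, higher in TNF, Orm3 (-1.02) and Saa4 (-0.16), higher in DEX, and Orm2, which did not pass. Saa3 and Hpx are shown as acute-phase genes with a match and a large difference, at chr7:46715677-46715826, minus strand and chr7:105600217-105600366, minus strand.
Saa3: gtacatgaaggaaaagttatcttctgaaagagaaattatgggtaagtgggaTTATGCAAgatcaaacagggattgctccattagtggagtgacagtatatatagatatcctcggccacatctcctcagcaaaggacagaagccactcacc
Hpx: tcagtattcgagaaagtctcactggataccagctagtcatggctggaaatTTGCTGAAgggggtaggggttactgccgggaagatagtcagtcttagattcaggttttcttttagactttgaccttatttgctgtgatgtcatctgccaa

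Interferon-stimulated antiviral genes were nearly all higher in TNF than in DEX. Of 46 tested, 42 were higher in TNF, 1 in DEX and 3 did not pass, with a median of 1.42, and 30 differed over 2-fold. Against control the median was 0.023 in TNF and -1.40 in DEX, and 40 of 46 lay below control in DEX against 3 in TNF. Rsad2, the antiviral enzyme viperin, lay at 2913, 2655 and 2523 in TNF, 384.7, 509.6 and 442.9 in DEX and 3865, 4001 and 3677 in control. Both treated groups were below control, DEX far more so, and the difference was 2.56 (SE 0.0859), adjusted p 8.55e-12. Oas2, a sensor of viral RNA that makes oligoadenylates, lay at 2069, 2038 and 1979 in TNF, 1481, 1584 and 1314 in control and 373.9, 341.9 and 372.1 in DEX. Oas1a followed it (2.50). Trim30a, a ubiquitin ligase, lay at 1776 to 1996 in TNF, 1621 to 2224 in control and 413.8 to 472.1 in DEX, so that TNF and control overlapped. Ifi27, a mitochondrial protein, was the 1 member higher in DEX (-0.25).

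Genes of antigen presentation by MHC class I were also mainly higher in TNF. Of 17 tested, 15 were higher in TNF, 0 in DEX and 2 did not pass, with a median of 0.70. Psmb9, a catalytic subunit of the immunoproteasome, lay at 1659, 1717 and 1590 in TNF, 1392, 1347 and 1335 in control and 368.4, 435.2 and 365.6 in DEX. No groups overlapped, and the difference was 2.05 (SE 0.0682). Tap1 and Tap2, the peptide transporter, differed by 1.25 and 0.96, with 2 of 3 probe sets of Tap1 passing and a range of -0.12 to 1.25. Nlrc5, the transactivator of class I genes, differed by 1.23. H2-M3, a class I molecule that presents formylated peptides, differed by 1.07.

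Response elements are shown for 3 interferon-stimulated genes and for H2-M3, whose stretch holds a kappaB match. The positions are chr12:26456453-26456602, minus strand for Rsad2, chr5:120907526-120907675, minus strand for Oas1a, chr7:104465194-104465343, minus strand for Trim30a and chr17:37270084-37270233, plus strand for H2-M3.
Rsad2: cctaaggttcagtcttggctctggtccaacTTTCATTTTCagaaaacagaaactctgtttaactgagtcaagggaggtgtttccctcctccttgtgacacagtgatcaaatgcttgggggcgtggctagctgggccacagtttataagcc
Oas1a: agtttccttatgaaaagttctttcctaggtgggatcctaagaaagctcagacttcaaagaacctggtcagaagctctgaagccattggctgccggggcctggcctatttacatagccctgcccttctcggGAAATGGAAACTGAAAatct
Trim30a: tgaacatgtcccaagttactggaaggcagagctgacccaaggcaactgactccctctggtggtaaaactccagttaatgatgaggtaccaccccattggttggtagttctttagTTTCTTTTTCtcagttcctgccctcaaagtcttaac
H2-M3: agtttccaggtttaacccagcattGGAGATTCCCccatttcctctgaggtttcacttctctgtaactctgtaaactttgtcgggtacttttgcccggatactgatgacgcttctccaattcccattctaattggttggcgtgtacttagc
In Oas1a 2 matches overlap. The interferon-stimulated response element was found in 14 of 41 windows of the antiviral list (34.1%), against 2.98% of all windows, and a kappaB match in 5 of 15 windows of the MHC class I list (33.3%). The kappaB matches belonged to 4 of 14 genes of that list, because H2-K1 had overlapping windows.

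Of 19 SOCS proteins and JAK-STAT genes, which carry and limit cytokine signals, 9 were higher in TNF, 3 in DEX and 7 did not pass. These shares were 47.4% for TNF, against 18.2% of all genes, and 15.8% for DEX, against 18.0%. Socs3, an inhibitor of cytokine and insulin receptors, lay at 1010, 1026 and 761.9 in TNF, 581.9, 504.2 and 484.6 in DEX and 501.2, 425.3 and 380.3 in control. The TNF arrays lay above both other groups, and the difference from DEX was 0.81 (SE 0.113). Jak2, the kinase, differed by 0.90, while Cish was higher in DEX (-0.50).

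Genes listed as glucocorticoid receptor and feedback targets went toward DEX. The list was chosen with earlier results of these data known and includes Fam107a and Cpm, so its count is not independent of these data. Of 38 tested, 25 were higher in DEX, 3 in TNF and 10 did not pass, with a median of -0.83, and 12 differed over 2-fold toward DEX. Against control their median was -0.0099 in TNF and 0.82 in DEX. Fkbp5, a chaperone of the glucocorticoid receptor, lay at 1520, 1372 and 1348 in TNF, 8128, 7961 and 8045 in DEX and 1283, 1177 and 1183 in control. The DEX arrays lay within a narrow range far above the others, and the difference was -2.50 (SE 0.0579), adjusted p 1.66e-13. Tsc22d3, the leucine zipper protein GILZ, lay at 865.8, 880.0 and 811.0 in TNF and 4146, 3579 and 4276 in DEX (4.62-fold by this probe set), and 3 of its 4 probe sets passed toward DEX, with a range of -2.29 to -0.16 over all 4. Pdk4, the kinase that shuts off pyruvate dehydrogenase, lay at 474.8, 475.7 and 403.8 and 3893, 2414 and 3248 (6.74-fold). Mertk, a receptor for the uptake of dying cells, was 5.96-fold higher in DEX.

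Some members of the list went the other way. Nr3c1, the glucocorticoid receptor itself, lay at 2501, 2482 and 2444 in TNF, 2432, 2243 and 2321 in control and 1691, 1668 and 1604 in DEX. TNF overlapped no DEX array, and the difference was 0.58 (SE 0.0573). It was below control in DEX (-0.49). Pck1, the enzyme of glyceroneogenesis, lay at 339.6, 417.7 and 364.4 in TNF, 143.5, 121.1 and 252.7 in DEX and 962.1, 822.8 and 865.7 in control, below control in both. Tgm2, a transglutaminase, was also higher in TNF (1.02). Hsd11b1, which regenerates active glucocorticoid inside the cell, lay at 5013, 5106 and 5138 in TNF, 4693, 6138 and 4740 in DEX and 6843, 7887 and 8633 in control. The treated groups overlapped below control, with an interval of -0.22 to 0.19 for the difference between them.

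Glucocorticoid response elements were found before the start of 3 genes of this list, in 4 of 45 windows (8.89%), against 0.387% of all windows. The Fam107a site was counted in overlapping windows, at -120 and -118. By gene, 3 of 32 had a match, against 119 of 27025 genes. Fam107a and Sgk1, a kinase of sodium transport, are shown at chr14:8309780-8309929, minus strand and chr10:21993640-21993789, plus strand, and the metallothionein Mt1 at chr8:94178939-94179088, plus strand. Sgk1 is outside the rule for named genes and was chosen after its values were seen (418.6 to 445.0 in TNF, 1152 to 1889 in DEX, -1.86).
Fam107a: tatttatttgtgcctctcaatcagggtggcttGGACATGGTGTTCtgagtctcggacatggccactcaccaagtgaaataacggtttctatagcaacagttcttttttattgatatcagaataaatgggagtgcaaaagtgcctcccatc
Sgk1: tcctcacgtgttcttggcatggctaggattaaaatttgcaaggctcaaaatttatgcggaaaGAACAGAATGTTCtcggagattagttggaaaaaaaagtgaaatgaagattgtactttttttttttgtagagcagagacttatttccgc
Mt1: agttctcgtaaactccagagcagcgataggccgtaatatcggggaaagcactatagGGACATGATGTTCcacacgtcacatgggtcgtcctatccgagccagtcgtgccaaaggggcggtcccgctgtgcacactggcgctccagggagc

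Metal-handling genes and clock genes held further members on both sides. Mt2, a metal-binding metallothionein, lay at 3271, 4225 and 3341 in TNF, 6702, 7221 and 7192 in DEX and 1683, 1454 and 1904 in control. Both treatments were above control, DEX more, by -0.97. Slc39a14, a zinc and iron importer, showed the same order, at 678.4 to 985.6, 2449 to 2995 and 450.4 to 506.2. Cp, the ferroxidase ceruloplasmin, was above control in both and higher in TNF (0.64). Over the list, 9 of 29 were higher in TNF and 5 in DEX. Of 18 clock genes 5 were higher in TNF and 6 in DEX. Per1, a repressor of the clock and a known glucocorticoid target, lay at 509.4, 479.8 and 397.8 in TNF and 1048, 867.7 and 860.2 in DEX (-0.98). Dbp, an output factor of the clock, lay at 3022, 2594 and 2756 and 1029, 1298 and 1056 (2.46-fold), and neither gene overlapped between groups.

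Adipogenic factors and adipokines that passed were more often higher in DEX. Of 28 tested, 3 were higher in TNF, 8 in DEX and 17 did not pass, with a median of -0.081. The share higher in TNF was 10.7%, against 18.2% of all genes, and that higher in DEX 28.6%, against 18.0%. Cebpd, an early factor of adipogenesis, lay at 2206, 2667 and 1743 in TNF, 5437, 4961 and 4052 in DEX and 1097, 919.2 and 752.3 in control. All treated arrays were above control, and DEX above TNF by 2.19-fold. Retn, the hormone resistin, lay at 7308, 7644 and 7581 in TNF, 13320, 13710 and 14440 in DEX and 13320, 13560 and 13270 in control, with TNF alone below control. Pparg, the main regulator of adipocyte genes, lay at 6328 to 6786 in TNF and 5080 to 5808 in DEX (0.29, adjusted p 0.00298). Cebpa, which acts with it, was -0.24 and did not pass without the third TNF array (-0.20) or without the third DEX array (-0.17). Rarres2, the adipokine chemerin, was higher in TNF (0.86). Lep, leptin, was dim, at 52.4 to 56.0 and 57.9 to 59.0, and did not pass.

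Lipid droplet and lipolysis genes went both ways. Of 30 tested, 8 were higher in TNF, 13 in DEX and 9 did not pass. Pnpla2, the first lipase of triglyceride breakdown, lay at 8367, 8648 and 7649 in TNF, 14300, 13240 and 14970 in DEX and 10110, 9749 and 10370 in control. G0s2, its inhibitor, lay at 1917, 1880 and 2199 in TNF, 926.0, 957.3 and 1133 in DEX and 3005, 2630 and 2814 in control. The lipase was thus higher in DEX by 1.72-fold and its inhibitor higher in TNF by 1.98-fold, with no overlap in either. Abhd5, the activator of the lipase, was also higher in DEX (-0.81), as was Cidec, a droplet fusion protein (-0.85), while the lipases Mgll and Ces1f were higher in TNF (0.56 and 0.96). Angptl4, an inhibitor of lipoprotein lipase, was above control in both groups (0.50 and 0.53), with an interval of -0.30 to 0.24 between them. Car3, carbonic anhydrase 3, an abundant adipocyte enzyme, lay at 3587, 3779 and 3882 in TNF, 652.5, 657.5 and 757.8 in DEX and 10570, 10320 and 9927 in control. The 3 groups were far apart, and TNF was 5.35-fold above DEX in the probe set used. Of its 3 probe sets 2 passed, with log2 differences of 0.31 to 2.42 over all 3.

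Most genes of cholesterol synthesis and sterol transport were lower in DEX than in TNF. Of 27 tested, 22 were higher in TNF, 1 in DEX and 4 did not pass, with a median of 0.74. Both treatments lay under control, with medians of -0.42 in TNF and -1.18 in DEX. Hmgcs1, which makes the precursor of mevalonate, lay at 4609, 4385 and 5344 in TNF, 2232, 2240 and 2405 in DEX and 6204, 6432 and 6589 in control. The groups did not overlap, and the difference was 1.05 (SE 0.0696). Fdft1, squalene synthase, lay at 2272 to 2286 in TNF, 1085 to 1232 in DEX and 3062 to 3452 in control. Stard4, a sterol carrier, differed by 1.27, and Insig2, which holds back the sterol sensor, was the 1 member higher in DEX (-0.76). Hmgcs1 alone of 26 windows held a sterol response element before the start (3.85%, against 1.05% of all windows), at chr13:119690201-119690350, plus strand.
Hmgcs1: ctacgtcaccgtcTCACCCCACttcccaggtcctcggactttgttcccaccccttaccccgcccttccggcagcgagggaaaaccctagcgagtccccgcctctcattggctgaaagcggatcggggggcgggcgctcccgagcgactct

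Fatty acid and triglyceride synthesis showed smaller differences. Of 32 tested, 12 were higher in TNF, 6 in DEX and 14 did not pass, and 22 lay below control in each treatment. Acly, which makes cytosolic acetyl-CoA, lay at 4569, 4460 and 5462 in TNF, 3300, 3226 and 3271 in DEX and 6965, 7263 and 7554 in control. Acss2, which makes it from acetate, differed by 0.88. Lpin1, a phosphatidate phosphatase, lay at 2497 to 2600 in TNF, 4750 to 5129 in DEX and 4141 to 4672 in control, and Thrsp, a lipogenic protein, was also higher in DEX (-1.06). Srebf1, the lipogenic regulator, did not pass, with an interval of -0.28 to 0.011.

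Most genes of 5 mitochondrial lists were higher in DEX than in TNF. Of 69 respiratory chain subunits, 59 were higher in DEX, 1 in TNF and 9 did not pass, with a median of -0.25. Against control 52 lay below in TNF and 2 in DEX. Ndufs1, a subunit of complex I, lay at 1686, 1723 and 1761 in TNF, 2851, 2767 and 2823 in DEX and 2514, 2387 and 2618 in control. The TNF arrays were lowest, and the difference was -0.70 (SE 0.0519). Of 33 genes of the tricarboxylic acid cycle and pyruvate dehydrogenase, 27 were higher in DEX and 1 in TNF, with a median of -0.44. Idh3b, a subunit of isocitrate dehydrogenase, lay at 4875, 5007 and 5027 in TNF, 7474, 8042 and 7762 in DEX and 6859, 6735 and 7095 in control (-0.64).

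Fatty acid oxidation and amino acid breakdown followed. Of 27 oxidation genes, 19 were higher in DEX, 1 in TNF and 7 did not pass, with a median of -0.30. Acadm, the medium-chain dehydrogenase, lay at 5360, 5335 and 5042 in TNF, 9228, 8190 and 9080 in DEX and 6277, 6027 and 6329 in control, 3 groups without overlap. Of 26 genes of branched-chain amino acid catabolism, 22 were higher in DEX, 1 in TNF and 3 did not pass, with a median of -0.35. Bcat2, the mitochondrial transaminase of the first step, lay at 846.1, 850.2 and 864.5 in TNF, 1736, 1932 and 2029 in DEX and 1446, 1332 and 1424 in control (2.20-fold). Bcat1, its cytosolic counterpart, was the 1 member higher in TNF, at 319.3 to 337.3 and 167.0 to 190.6. Of 12 genes of coenzyme Q synthesis, 7 were higher in DEX, 0 in TNF and 5 did not pass. Coq8a differed by -0.94, and Coq7, a hydroxylase of the pathway, by -0.38. Among 14 brown adipocyte markers 7 were higher in DEX, and their summed level was 3429 to 3640 in TNF, 4508 to 4626 in DEX and 4216 to 4304 in control; their part in the mitochondrial differences was not tested.

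Genes of insulin signalling and glucose uptake went both ways. Of 44 tested, 13 were higher in TNF, 9 in DEX and 22 did not pass. Irs1, the main insulin receptor substrate of fat cells, lay at 3895, 3790 and 4270 in TNF, 2305, 2069 and 2363 in DEX and 4684, 4492 and 4261 in control. Only DEX passed against control, and TNF was above DEX by 0.82 (SE 0.0664). Irs2, the other substrate, was higher in DEX (-0.41). Grb14, an inhibitor that binds the insulin receptor, lay at 1880, 1778 and 1602 in TNF, 514.4, 501.7 and 373.4 in DEX and 735.9, 713.6 and 696.4 in control, TNF above and DEX below it. Slc2a4, the insulin-responsive glucose transporter GLUT4, lay at 1757, 1786 and 1658 in TNF, 1339, 1355 and 1669 in DEX and 2722, 2380 and 2515 in control. It was below control in both, the treated groups overlapped, and the difference of 0.26 did not pass without the first or second array of either group (0.20 to 0.25). Slc2a1, the basal glucose transporter, and Hk1, a hexokinase, were higher in TNF (0.71 and 0.72). Tbc1d4, which holds GLUT4 inside the cell, was 2.01-fold higher in DEX. Insr, the receptor, did not pass, with an interval of -0.19 to 0.069. Of 35 genes of glycolysis and glycogen, 11 were higher in TNF and 14 in DEX, among them Pygl, a glycogen phosphorylase (-1.71).

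**Figure D3:**
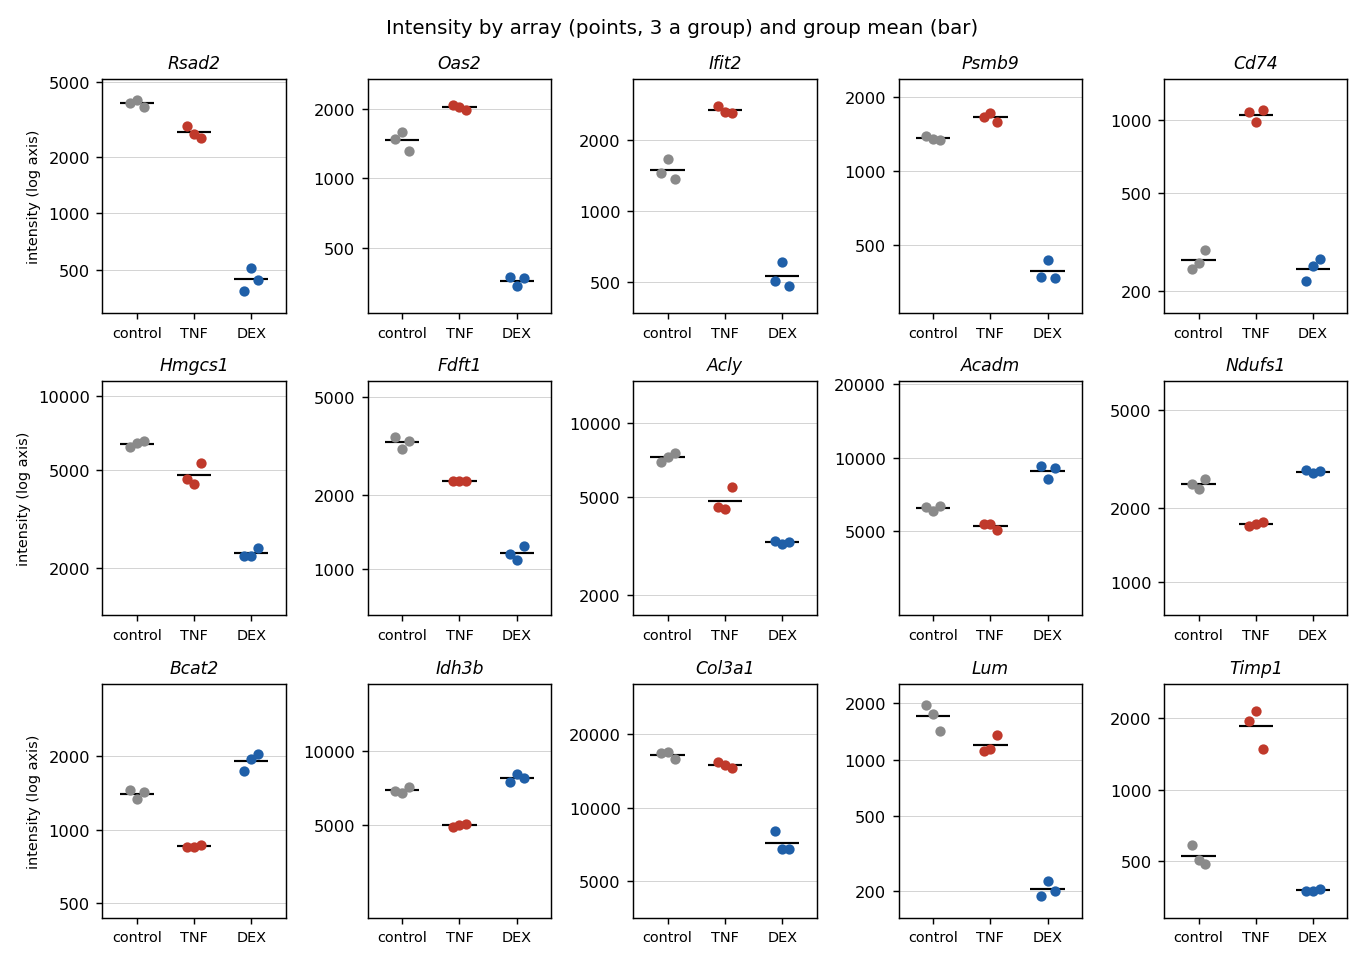
Each panel plots the intensity of 1 gene on a logarithmic axis in the 3 control (grey), 3 TNF (red) and 3 DEX (blue) arrays, with points for arrays and a bar for the group mean. Rsad2 and Psmb9 are lowest in DEX, Ndufs1 and Bcat2 lowest in TNF, and Hmgcs1 falls from control at 6204 to 6589 through TNF to DEX at 2232 to 2405.

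Matrix genes were mainly higher in TNF. Of 35 collagens and collagen-modifying enzymes, 21 were higher in TNF, 2 in DEX and 12 did not pass, with a median of 0.30, and 18 lay below control in DEX against 7 in TNF. Col3a1, a fibrillar collagen, lay at 15410, 14900 and 14480 in TNF, 8040, 6762 and 6801 in DEX and 16660, 16830 and 15820 in control. TNF did not pass against control, and DEX did. Of 44 matrix glycoproteins and proteoglycans, 27 were higher in TNF and 4 in DEX, with a median of 0.41. Lum, the proteoglycan lumican, lay at 1116, 1133 and 1346 in TNF, 187.7, 225.9 and 199.2 in DEX and 1944, 1752 and 1425 in control (5.51-fold between treatments). Cd44, the hyaluronan receptor, lay at 1806 to 1863 in TNF and 483.6 to 540.1 in DEX. Dcn, decorin, differed by 1.90 in the probe set used and by -0.06 in another.

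Of 33 matrix proteases and inhibitors, 17 were higher in TNF, 5 in DEX and 11 did not pass. Timp1, an inhibitor of metalloproteinases, lay at 1942, 2145 and 1488 in TNF, 376.3, 376.2 and 384.0 in DEX and 585.4, 506.1 and 486.4 in control. Timp4, another inhibitor, went the other way, at 94.2 to 126.6 in TNF and 518.1 to 803.1 in DEX. Mmp3, stromelysin, was 4.99-fold higher in TNF. Of 30 adhesion molecules and scavenger receptors, 8 were higher in TNF and 7 in DEX. Vcam1, a receptor for leukocyte adhesion, lay at 6309, 5819 and 5878 in TNF and 808.5, 773.2 and 846.8 in DEX (7.29-fold). Among 21 preadipocyte and fibroblast markers 12 were higher in TNF and 1 in DEX, with Pdgfrb, a growth factor receptor of stromal cells, at 2468 to 2770 and 801.4 to 998.7. Their summed level was 59090 to 62870 in TNF, 45330 to 48960 in DEX and 47440 to 52390 in control, and their part in the matrix differences was not tested.

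Macrophage and leukocyte markers moved beside the inflammatory lists. Of 21 tested, 8 were higher in TNF, 2 in DEX and 11 did not pass, with a median of 0.037. Their summed level was 12410 to 12620 in TNF, 6486 to 7426 in DEX and 8897 to 9463 in control. Cd74, the invariant chain of MHC class II, lay at 1071, 981.4 and 1093 in TNF and 219.0, 253.1 and 269.5 in DEX, and Mpeg1, a pore-forming protein, at 912.9 to 1052 and 245.1 to 283.2. The 2 members higher in DEX were Fcgr1 (-0.22) and Ms4a1 (-0.16). Ms4a1 lost its call under several alternatives, among them without the second TNF array (-0.12). The defining markers went different ways. Itgb2 (1.08), Lyz2 (0.96), Cd53 (0.62) and Cd14 (0.58) were also higher in TNF, while Adgre1, Csf1r, Cd68, Tyrobp and Fcer1g did not pass. Adgre1 lay at 90.1 to 106.1 in TNF and 100.8 to 111.9 in DEX, and Csf1r at 423.9 to 504.5 and 396.3 to 437.6. The interval of the difference was -0.26 to 0.012 for Adgre1 and -0.0022 to 0.35 for Csf1r. Adgre1 passed toward DEX without the second TNF array (-0.19), and Csf1r toward TNF without the third (0.25). The part of the leukocyte markers in the inflammatory differences was not tested. Of 7 endothelial markers 2 were higher in TNF and 1 in DEX, but 1 passed without the first TNF array and 0 without the second (limma, adjusted p). Of 7 skeletal muscle markers 0 were higher in TNF and 1 in DEX. These lists summed to 1494 to 1608 and 1151 to 1231 in TNF, and to 1450 to 1511 and 1139 to 1202 in DEX.

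Enzymes of xenobiotic, retinoid and steroid metabolism leaned to DEX. Of 43 tested, 11 were higher in TNF, 18 in DEX and 14 did not pass. Aldh1a1, a retinaldehyde dehydrogenase, lay at 280.7, 298.5 and 246.8 in TNF, 2207, 1948 and 2021 in DEX and 98.3, 106.8 and 83.2 in control, above control in both. Adh1, an alcohol dehydrogenase, was 4.02-fold higher in DEX, and Cyp26b1, which degrades retinoic acid, 2.83-fold. Of 39 glutathione and antioxidant genes, 9 were higher in TNF and 15 in DEX. Gsta3, a glutathione transferase, lay at 46.9 ± 4.36 in TNF and 730.1 ± 73.2 in DEX (SD, n = 3), while Sod3, the extracellular superoxide dismutase, was higher in TNF (1.48). Of 24 prostaglandin genes, 7 were higher in TNF and 6 in DEX. Ptgds, prostaglandin D synthase, lay at 795.6, 686.3 and 779.0 in TNF and 6295, 7479 and 6214 in DEX, and Ltc4s, leukotriene C4 synthase, at 2970 to 3216 and 880.7 to 1119. Of 26 apolipoprotein genes, 9 were higher in TNF and 7 in DEX, with Apoe at 494.2 to 506.8 in TNF, 170.3 to 193.5 in DEX and 593.8 to 770.3 in control.

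Growth factor and growth control genes leaned to TNF. Of 34 genes of the insulin-like growth factor axis and other growth factors, 15 were higher in TNF and 5 in DEX. Igf1 lay at 2277, 2297 and 2224 in TNF, 1348, 1295 and 1285 in DEX and 3529, 2994 and 2902 in control, below control in both. Of 44 genes of TGF-beta, BMP and Wnt signalling, 19 were higher in TNF and 9 in DEX, with Sfrp2, a secreted Wnt modulator, 4.62-fold higher in TNF. Tgfb1 differed by 0.59 in the probe set used and by -0.24 in another that also passed. Of 45 cell cycle genes, 19 were higher in TNF and 4 in DEX. Cdk1, the mitotic kinase, lay at 808.3 to 834.5 in TNF and 494.4 to 561.4 in DEX.

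Of 32 lysosomal genes, 21 were higher in TNF, 3 in DEX and 8 did not pass, with a median of 0.21. Lgmn, the protease legumain, lay at 1322, 1365 and 1288 in TNF and 554.8, 596.3 and 607.5 in DEX (2.23-fold). Of 37 genes of endoplasmic reticulum stress, 5 were higher in TNF and 12 in DEX, and 10 passed in all without the first DEX array and 9 without the third TNF array. Ddit3, the stress factor CHOP, was higher in TNF (0.59) and Atf6, a sensor of unfolded proteins, in DEX (-0.42). Of 40 genes of AP-1 and ERK feedback, 13 were higher in TNF and 11 in DEX, and 15 passed without the first DEX array. Dusp1, a phosphatase of MAP kinases and known glucocorticoid target, lay at 356.9, 318.6 and 257.1 in TNF and 600.0, 679.3 and 462.8 in DEX (-0.86). Junb, a subunit of AP-1, lay at 534.8, 524.2 and 320.1 in TNF and 314.2, 243.2 and 181.2 in DEX (0.86).

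**Figure D4:**
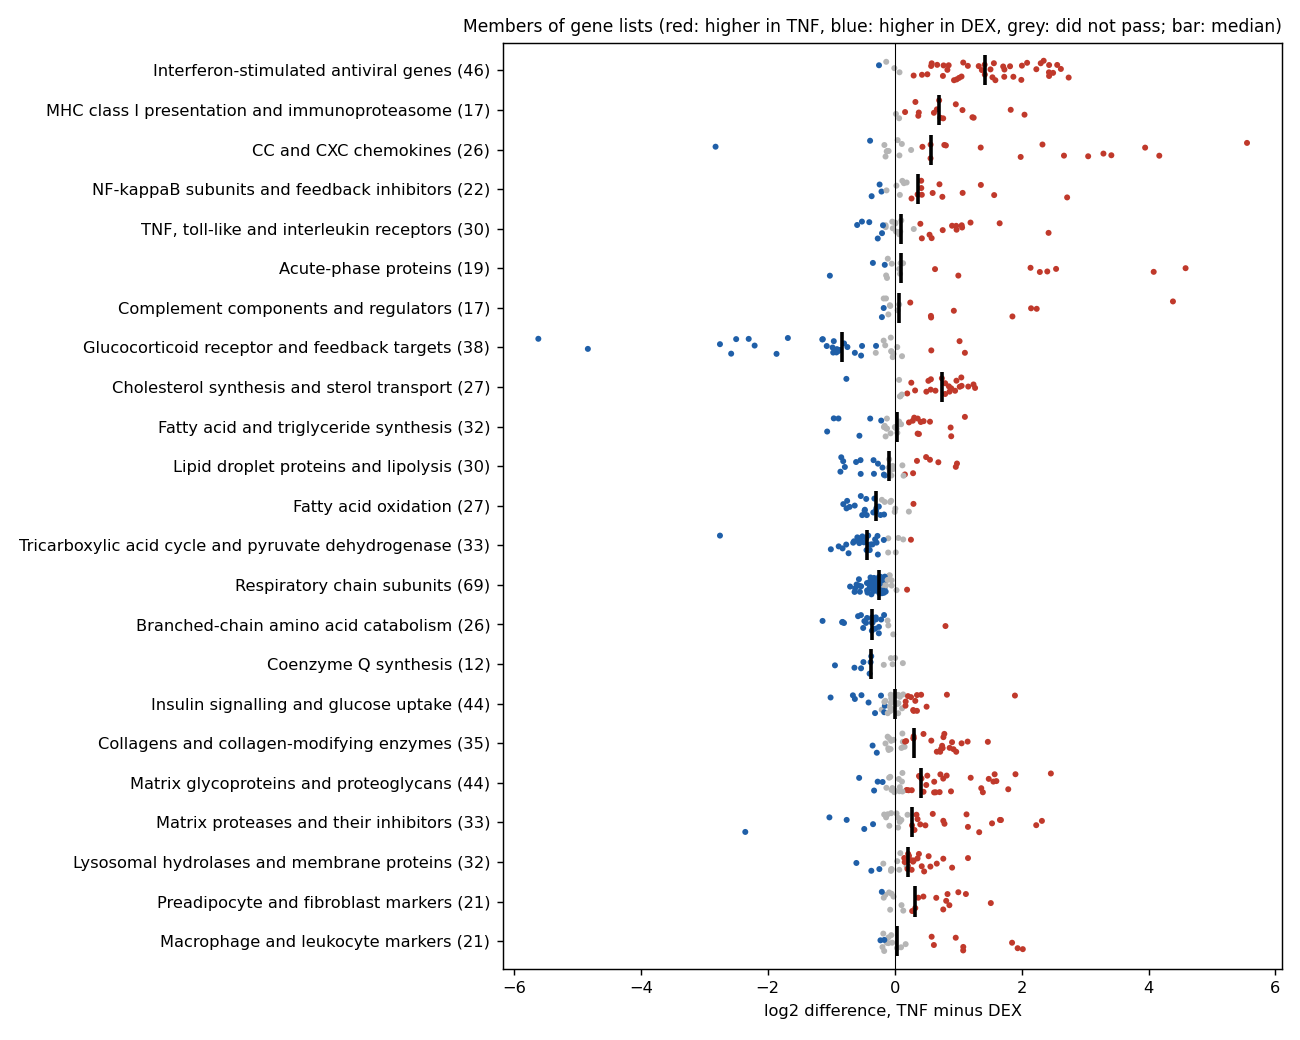
Each point is 1 tested gene of a list, placed by its log2 difference, TNF minus DEX, with red for higher in TNF, blue for higher in DEX, grey for not passed and a bar for the list's median. The number tested stands behind each name, and medians run from 1.42 for the interferon-stimulated genes to -0.83 for the glucocorticoid targets.

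Genes with several probe sets did not always give 1 answer. Of 7053 genes with over 1 tested, 112 had probe sets that passed in opposite directions, among them Ikbkb, a kinase of the NF-kappaB pathway (-0.28 to 0.43). With every probe set tested on its own, all probe sets passed the same way in 1057 of the 7053. By the probe set used for each gene, 2860 of the 7053 passed. Among the genes named above, the lowest probe set differed by -0.03 for Fdft1, -0.09 for Bcat1, 0.04 for Acly and -0.10 for Cp. It differed by -0.01 for Mgll and -0.004 for Acss2. The highest probe set differed by -0.02 for Atf6, -0.28 for Cebpd and -0.38 for Slc39a14. These are examples and not a full list.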

How the data were processed

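The 11 arrays gave 1 intensity per probe set. These intensities were deposited by the authors as a value table on a linear scale; the background correction and normalization behind them are not given in the sources used here. All 11 value columns matched a sample by title, and 0 belonged to no sample. Probe sets with exactly 1 symbol in the platform annotation were kept, and a gene was read from its probe set with the highest mean. Genes whose mean fell under 51.74, the 25th percentile of probe set means, were left out, which left 15623. log2(intensity + 16) was fitted with limma 3.58.1 in R 4.3.3, with 1 mean for each of the 4 groups over all 11 arrays (7 residual degrees of freedom), and TNF was compared with DEX, two-sided, with Benjamini-Hochberg adjustment. A fold is 2 to the power of the log2 difference. The fitting was tested on simulated data. The number of arrays limits the precision.

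The groups, the 42 gene lists (1361 symbols, 1190 of them tested) and the motifs were chosen with earlier results of these data known, and the sterol motif was added after the values were seen. Named were the 15 largest differences each way, the members of each list with the smallest adjusted p (up to 6 in its main direction and 3 in the other), a fixed set of insulin, glucocorticoid and inflammatory genes, and markers of other cell types. Alternatives tried were other pseudocounts, filters, scalings, probe set rules, arrays in the fit, a replicate block and each array left out.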

Additional observations from a re-analysis of the deposited data

Results flagged for a closer look

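Probe sets with no gene symbol in the annotation lay outside the comparison by gene, so their signal was in data the comparison did not use. The 2 largest differences in each direction among them follow. Probe set 1451942_x_at lay at 2019, 2052 and 2043 in TNF and at 262.3, 329.0 and 212.5 in DEX, a log2 difference of 2.88. Probe set 1438027_at lay at 302.0, 335.6 and 366.0 in TNF and at 50.6, 39.2 and 33.0 in DEX, a difference of 2.63. Probe set 1422411_s_at lay at 16.5 ± 1.42 in TNF and 936.3 ± 323.3 in DEX (SD, n = 3), a difference of -4.82. Its TNF, control and CI arrays all lay under the dim filter of 51.74. It passed that filter, set on the mean of all arrays, only through the DEX arrays. Probe set 1456295_at lay at 97.1, 101.0 and 107.8 in TNF and at 697.3, 648.3 and 696.2 in DEX, a difference of -2.56. Control arrays lay between 1479 and 1637 for the first of these probe sets and between 152.2 and 189.2 for the second. For the third they lay between 16.3 and 19.3, and for the last between 114.3 and 119.1.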

How the results depend on the processing

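The number of genes that passed stayed within 1.5 times 5645 under 21 alternatives and rose where every probe set was tested on its own, which by construction tests more features: 8861 of 27826 passed, 4589 higher in TNF and 4272 higher in DEX, with 415 and 163 over 2-fold. With 1 array left out it ranged from 4519 to 5669, with 2373 to 2921 higher in TNF, 2058 to 2840 higher in DEX, and 250 to 276 and 88 to 95 over 2-fold. Quantile normalization gave 5731, of which 5021 were shared in direction, with 2539 higher in TNF and 3192 higher in DEX. The mean of all probe sets of a gene gave 5641, with 2649 higher in TNF and 2992 higher in DEX. The replicate block gave 5720, of which 5472 were shared in direction. Deviations of same-numbered TNF and DEX arrays correlated at 0.220, -0.166 and 0.055. Same-numbered control and TNF arrays correlated at 0.288, 0.009 and 0.341, against -0.317 to 0.084 for different numbers. For control and DEX the values were 0.277, 0.019 and 0.106, against -0.347 to 0.200. With so few arrays these values cannot show whether the numbers pair the samples. With 1 array left out, 4376 (the first TNF array) to 5514 (the first control array) of the 5645 genes passed in the same direction. Of 348 named genes that passed, 30 lost the call under some alternative, most often Vtn, Ucp1 and Serpina3n. Most of the named genes were chosen for large differences or small adjusted p in the same fit. Their share therefore does not measure how stable the other calls are. In 13 pairs of gene and alternative, a named gene that had not passed did pass. Among these were Lpl with quantile normalization (-0.19), Adgre1 without the second TNF array (-0.19) and Csf1r without the third (0.25). The direction turned for 9 named genes, none of which had passed, and the cause was not tested. Myog turned to 0.0056 with centred arrays and 0.037 with quantile normalization, Acta1 to 0.014 with the latter, and Nfkbia to -0.0098 with the mean of its probe sets. With 1 array left out these genes ranged from -0.068 to 0.048 (Myog), -0.074 to 0.061 (Acta1), -0.040 to 0.011 (Vim), -0.12 to 0.024 (Cox7a1), -0.20 to 0.11 (Angptl4), -0.12 to 0.0027 (Ckm), -0.085 to 0.11 (Hsd11b1) and -0.049 to 0.12 (Cd68), and -0.021 (without the first TNF array) to 0.077 (Nfkbia). Medians near 0 of some lists, among them insulin signalling, glycolysis, adhesion molecules, other cytokines and macrophage and leukocyte markers, turned sign under some alternatives. Signal near the dim filter limits the dim genes and signal near the top of the scale the brightest.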
